A study of Mus musculus with 6 samples.

Results

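The 10 genes described here belong to RAS-ERK signalling, 8 as inhibitors that the pathway itself induces and 2 as its transcription factors, and were read in 6 RNA sequencing libraries of mouse retina. They are 3 MAP kinase phosphatases (Dusp1, Dusp4, Dusp6), 3 Sprouty genes (Spry1, Spry2, Spry4), 2 Spred genes (Spred1, Spred2) and 2 ETS factors (Etv4, Etv5), matched by symbol among the 22731 genes of the deposited table. All 10 were found, and all 10 averaged 1 RPKM or more, as did 12599 genes in all. RPKM is a read number scaled to gene length and library depth, and these 12599 genes were tested. The 10 were chosen by name with the conditional knockout and control values of these libraries already in view. Their difference between the groups is therefore given as a description. They were tested along with the other genes, but no p-value is printed for a member and no outcome is read as support.

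The study asked what the loss of Dicer1 in rod photoreceptors does to the RNA of the whole retina. Its product, Dicer, is the enzyme that trims hairpin precursors to mature microRNAs. All mice were 4 weeks old, of a mixed C57BL/6J - SJL background and homozygous for a floxed Dicer allele (Dicerfl/fl). The conditional knockout (cKO) mice carried the Cre transgene (iCre75+) and their control littermates did not (iCre75-). Cre acts in rods, and every other retinal cell type keeps Dicer1. Each group had 3 libraries (cKO replicates 2, 3 and 4, control replicates 1, 2 and 3), each made from RNA pooled from 4 mice, with retinas taken in the morning.

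Growth factors that bind receptor tyrosine kinases switch on RAS, which drives RAF, MEK and the kinases ERK1 and ERK2. Active ERK enters the nucleus and induces early genes such as Fos and Egr1, and also the genes of its own inhibitors. MAP kinase phosphatases remove the activating phosphates from ERK and related kinases, Sprouty proteins dampen signalling between receptor and RAF, and Spred proteins bring the RAS inhibitor neurofibromin to the membrane. Etv4 and Etv5 are not inhibitors but ETS transcription factors of the PEA3 group that FGF-ERK signalling induces, and they are often read beside the inhibitors. In the retina the pathway is well known in Müller glia, which activate it after injury.

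The promoter of Dusp1 is shown because it alone, among the 7 members with a window, held a complete cAMP response element (CRE, the site of the factor CREB). The sequence is the RefSeq window on GRCm38.p6 from 250 bases before to 50 bases after the annotated start, chr17:26508423-26508722, minus strand, 5′ to 3′, with the element in capitals.
Dusp1 promoter: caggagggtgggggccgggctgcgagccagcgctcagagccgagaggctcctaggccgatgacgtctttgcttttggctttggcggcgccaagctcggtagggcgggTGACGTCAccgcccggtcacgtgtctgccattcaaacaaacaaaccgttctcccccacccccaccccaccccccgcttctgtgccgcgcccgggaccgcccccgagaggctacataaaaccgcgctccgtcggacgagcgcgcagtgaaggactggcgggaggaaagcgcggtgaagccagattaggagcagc
The element TGACGTCA starts at position −143 from the annotated start. Dusp4, Spry4 and Etv4 had no window and were not searched, and windows were matched for the other 7 of the 10 members. Searched on both strands, TGACGTCA was found in 1 of these 7, against 3.71% of the 8926 tested genes with a window and 1.79% of all 32851 windows. The 5-base core TGACG, which the full element contains, was found in Dusp1 and Spred2, against 35.7% of tested genes. The AP-1 site TGANTCA, the ETS site CCGGAAG, the EGR site GCGNGGGCG and the CArG box were in none of the 7, against 5.69%, 19.1%, 13.1% and 1.55% of tested genes. A match is a stretch of letters in this window and says nothing of binding.

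Because Dicer makes microRNAs, the 3′ UTRs of the members were searched for the sites of 9 retinal microRNAs, of which the rod-rich miR-182 and miR-183 and the known Sprouty regulator miR-21 are shown. The mature sequences are from RefSeq, with the seed (bases 2 to 8) in capitals.
miR-182-5p: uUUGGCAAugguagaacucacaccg
miR-183-5p: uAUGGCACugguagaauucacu
miR-21a-5p: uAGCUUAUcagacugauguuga
The matching stretches of the members' longest 3′ UTR in GENCODE M21 (GRCm38) follow, with the complement of the seed in capitals, and without the miR-182 site of Spry4.
Dusp6, miR-182 site: tgtgttagacaaggTTGCCAAgt
Spry2, miR-183 site: tttttttggtccatGTGCCATtt
Spred1, miR-183 site: gattcatgtgtacaGTGCCATct
Spry1, miR-21 site: atgtaagtgcttaaATAAGCTat
Spry2, miR-21 site: gagacccacattgcATAAGCTaa
The miR-182 seed site was in 2 of the 10 members, Dusp6 and Spry4, against 14.4% of the 11049 tested genes with a 3′ UTR. The miR-183 site was in Spry2 and Spred1 (12.6% of tested genes), and the miR-21 site in Spry1 and Spry2 (8.53%). No member held a site of miR-96, let-7 or miR-9 (11.4%, 12.1% and 15.8% of tested genes). The miR-27b sites were in Spry1 and Spry2 (19.5%), the miR-181a sites in Spry4 and Spred1 (19.5%), and a miR-204 site in Spred1 (17.6%). Dusp1 (690 bases of 3′ UTR), Dusp4 (1111 bases), Spred2, Etv4 and Etv5 held no site of the 9.

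Dicer1 itself was at 8.02, 7.06 and 7.90 RPKM in cKO replicates 2, 3 and 4 and at 8.48, 8.77 and 8.33 RPKM in control replicates 1, 2 and 3. The cKO mean was 89.9% of the control mean, and since the value also counts exons outside the floxed part and cells that keep Dicer1, it says little about the genotype. The libraries held between 12336426 and 32934561 reads in genes, fewest in cKO replicate 4, and correlated with each other at r = 0.979 to 0.993 over the tested genes. If the reads of cKO replicate 4 entered the authors' counting in duplicate, which these values cannot settle, its read numbers given here count each such pair once. Markers of rods summed to between 20180 and 22260 RPKM in cKO and between 21365 and 24783 RPKM in controls, so the tissue was rod-rich retina in both groups. In whole retina, fewer cells of a type and less RNA per cell cannot be told apart.

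In control retinas the members spanned 2.16 to 22.2 RPKM, or from the 12.6th to the 76.8th percentile of the tested genes. In order of the control mean they were Dusp1, Dusp4, Spry2, Spred1, Dusp6, Etv5, Spry1, Spred2, Spry4 and Etv4. The control ranges of neighbours in this order overlapped for Dusp1 and Dusp4, for Etv5 and Spry1, for Spry1 and Spred2, and for Spred2 and Spry4, and were apart for the other neighbours. In cKO retinas the order was Dusp4, Spry2, Dusp1, Spred1, Dusp6, Etv5, Spry1, Spred2, Etv4 and Spry4. The gene with the highest control level, Dusp1, stood behind Dusp4 and Spry2 in cKO, and Spry4 moved behind Etv4. The cKO range of Dusp1 lay inside that of Spry2, however, and the cKO range of Spry4 inside that of Etv4.

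Of the 10 members, the mean log2 value in cKO was below that of controls for 8 and above it for 2. Their median log2 fold change, on the log2(RPKM + 0.5) scale used throughout, was −0.09, against −0.01 over all tested genes, of which 51.6% had a lower mean. None of the 10 passed limma's adjusted p of 0.05, which over the whole table called 0% of genes lower and 0.00794% higher (1 gene, the sperm protamine gene Prm1). Prm1 had a log2 fold change of 10.39. The cKO mice differ from controls in the Cre transgene as well as in Dicer1, and the cause of this difference was not tested. All 3 cKO values lay below all 3 control values for 4 members (Dusp1, Dusp6, Spry2, Spry4), as for 5.78% of tested genes. All 3 lay above for 1 member (Etv5), as for 5.91% of tested genes. The other 5 overlapped. Since the members were chosen on this contrast, nothing is read from these counts.

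**Figure D1:**
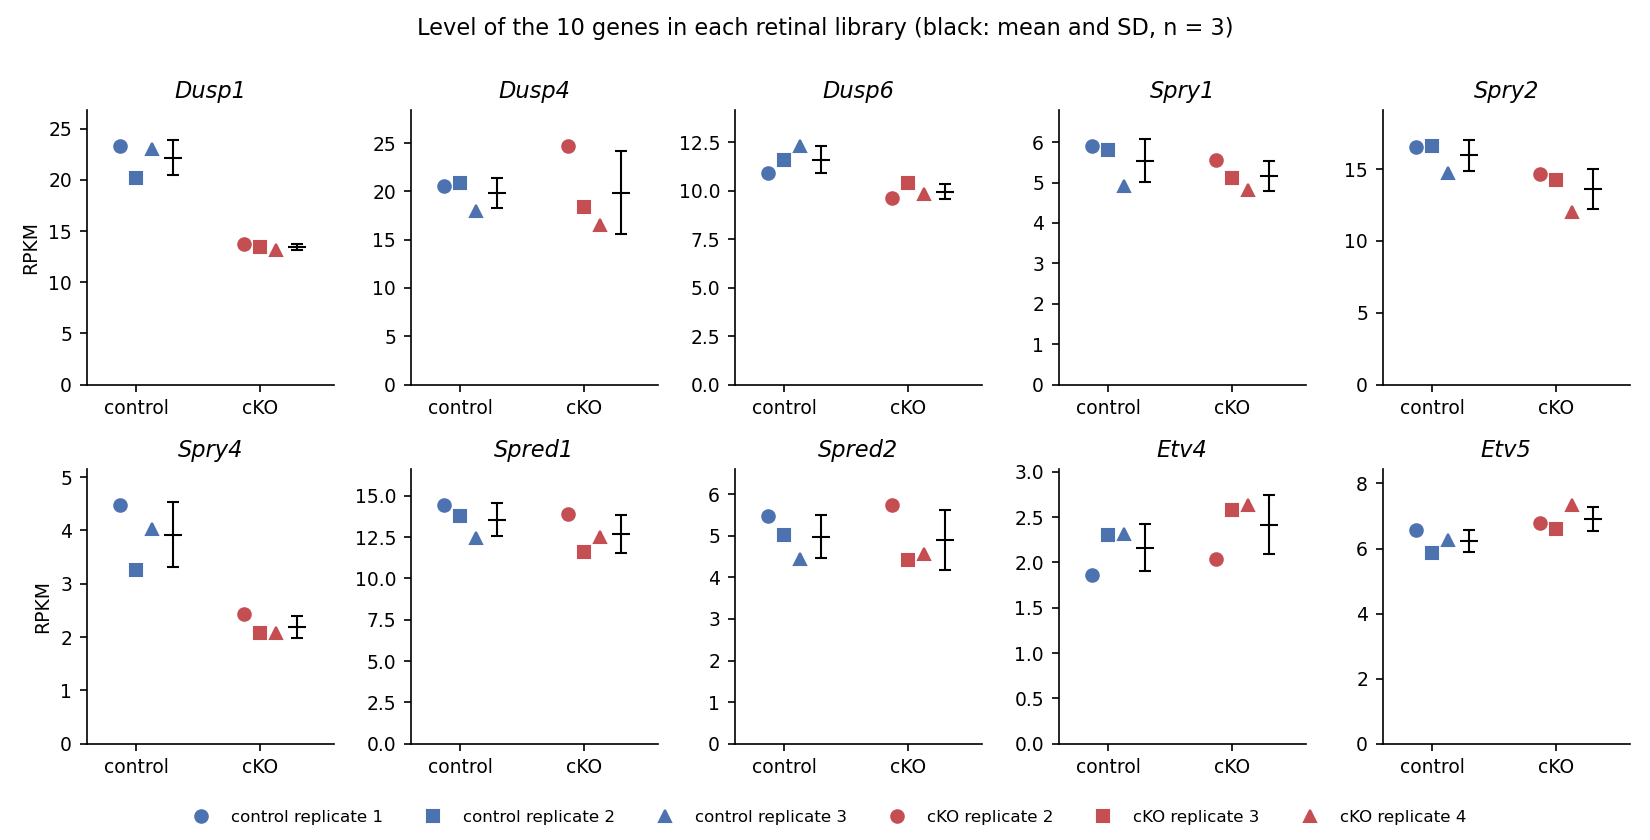
RPKM of each of the 10 genes (vertical axis, from 0) in the 3 control libraries (blue) and the 3 cKO libraries (red), with symbols for the replicates and the group mean ± SD in black. Dusp1 and Spry4 show the widest separation of the groups relative to their level, while Dusp4, Spry1, Spred1, Spred2 and Etv4 overlap.

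Among the 3 phosphatases, Dusp1 had the lowest percent of control. Dusp1, on chromosome 17, encodes a nuclear phosphatase of p38, JNK and ERK that is itself an early response gene. It was at 13.7, 13.5 and 13.1 RPKM in cKO replicates 2, 3 and 4 and at 23.3, 20.2 and 23.0 RPKM in control replicates 1, 2 and 3. Every cKO library lay below every control library, with a gap of 6.48 RPKM between the groups, and control replicate 2 was the lowest control. The means were 13.4 ± 0.299 and 22.2 ± 1.71 RPKM (SD, n = 3 each), so that the cKO mean was 60.7% of control, with a log2 fold change of −0.70 ± 0.08 (SE). Leaving out each library in turn gave −0.76 to −0.66.

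The cKO values of Dusp1 rested on 654, 938 and 386 reads and the control values on 1559, 1530 and 1809. The coefficient of variation was 2.22% in cKO, below the 4.16% that counting alone gives at these reads, and 7.69% in controls, above the 2.48% of counting. In the GENCODE annotation, the extent of Dusp1 (GRCm38, 26505590 to 26562128) overlaps Ergic1 on the other strand. Most of this extent lies before the RefSeq start, whose window shown above ends at 26508722. The length recovered with the reads of Dusp1 was 1942 bases. These libraries carry no strand, so reads in a shared stretch cannot be told apart, but whether Ergic1 reaches the counted exons was not tested.

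Dusp4, on chromosome 8, encodes a nuclear phosphatase of ERK and JNK. Its level was 24.7, 18.3 and 16.5 RPKM in cKO and 20.5, 20.8 and 17.997 RPKM in controls. The groups overlapped: cKO replicate 2 was the highest of all 6 libraries and cKO replicate 4 the lowest. The cKO mean was 100.33% of control (log2 fold change −0.01 ± 0.15), and the sign turned with the library left out, from −0.18 to 0.11. Its variation over the cKO libraries, 21.6%, was far above the 3.14% of counting.

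Dusp6, on chromosome 10, encodes a cytoplasmic phosphatase specific to ERK. It was at 9.65, 10.4 and 9.83 RPKM in cKO and at 10.9, 11.6 and 12.3 RPKM in controls. The groups did not overlap, but the gap between the highest cKO and the lowest control library was only 0.561 RPKM. The cKO mean was 85.7% of control, with a log2 fold change of −0.21 ± 0.08 and between −0.25 and −0.17 with each library left out. Its 3′ UTR holds 1 site of the 9 microRNAs, for miR-182.

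Summed over the 3 phosphatases, which RPKM allows because it is per length, the level was 53.6 ± 1.11 RPKM in controls and 43.3 ± 4.39 RPKM in cKO, or 80.7%. The means differed by −8.72 RPKM for Dusp1 and by −1.66 RPKM for Dusp6, against 0.0649 RPKM for Dusp4.

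Of the Sprouty genes, Spry4, on chromosome 18, had the lowest level and the lowest percent of control. It was at 2.43, 2.07 and 2.07 RPKM in cKO and at 4.47, 3.26 and 4.03 RPKM in controls. Every cKO library lay below every control, with a gap of 0.833 RPKM, and control replicate 2 was again the lowest control. The means were 2.19 ± 0.205 and 3.92 ± 0.615 RPKM, or 55.8% of control, with a log2 fold change of −0.71 ± 0.12. With each library left out it was −0.82 to −0.62, and on the recovered reads, where the added 0.5 RPKM no longer shrinks a low gene, −0.85. The reads behind it numbered 273, 340 and 144 in cKO and 707, 583 and 749 in controls. Its 3′ UTR of 3559 bases holds 1 miR-182 site and 2 miR-181a sites.

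Spry2, on chromosome 14, was at 14.7, 14.2 and 12.04 RPKM in cKO and at 16.5, 16.6 and 14.7 RPKM in controls. The groups were separated by 0.0645 RPKM as deposited, and they overlapped once each library was rescaled by median-of-ratios size factors (cKO 11.6 to 15.2, controls 14.3 to 17.1). The cKO mean was 85.5% of control, with a log2 fold change of −0.22 ± 0.10. Spry2 holds 1 site each of miR-183, miR-21 and miR-27b.

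Spry1, on chromosome 3, was at 5.55, 5.12 and 4.81 RPKM in cKO and at 5.90, 5.80 and 4.93 RPKM in controls. The groups overlapped, and control replicate 3 lay inside the cKO range. The cKO mean was 93.1% of control (log2 fold change −0.09 ± 0.10). The 3 Sprouty genes together summed to 20.99 ± 1.90 RPKM over the cKO libraries and 25.4 ± 1.63 RPKM over the controls, or 82.6%. Spry3, the remaining Sprouty gene, was listed at 0 in all 6 libraries.

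The Spred genes differed little in mean. Spred1, on chromosome 2, was at 13.9, 11.6 and 12.5 RPKM in cKO and at 14.4, 13.8 and 12.5 RPKM in controls, and the groups overlapped. Its cKO mean was 93.5% of control, with a log2 fold change of −0.09 ± 0.10. Spred2, on chromosome 11, was at 5.74, 4.43 and 4.56 RPKM in cKO and at 5.48, 5.01 and 4.45 RPKM in controls. The highest and the lowest of the 6 Spred2 values were both in cKO, and the cKO mean was 98.5% of control. Spred1 has the longest 3′ UTR of the members, 4330 bases, with sites of miR-183, miR-181a and miR-204.

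Both ETS factors had the higher mean in cKO. Etv5, on chromosome 16, was at 6.79, 6.61 and 7.33 RPKM in cKO and at 6.56, 5.87 and 6.27 RPKM in controls. All 3 cKO values lay above all 3 control values, by 0.0480 RPKM at the nearest, and they did so after median-of-ratios rescaling too. The means were 6.91 ± 0.379 and 6.23 ± 0.347 RPKM, or 110.87% of control, with a log2 fold change of 0.14 ± 0.08.

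Etv4, also on chromosome 11, was at 2.04, 2.58 and 2.63 RPKM in cKO and at 1.86, 2.31 and 2.31 RPKM in controls. The groups overlapped, and the lowest libraries were control replicate 1 and cKO replicate 2. Its cKO mean was 111.87% of control (log2 fold change 0.13 ± 0.12), on 93 to 219 reads a library. The relative Etv1 averaged 0.689 RPKM over the cKO and 0.730 RPKM over the control libraries, under the minimum for testing.

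**Figure D2:**
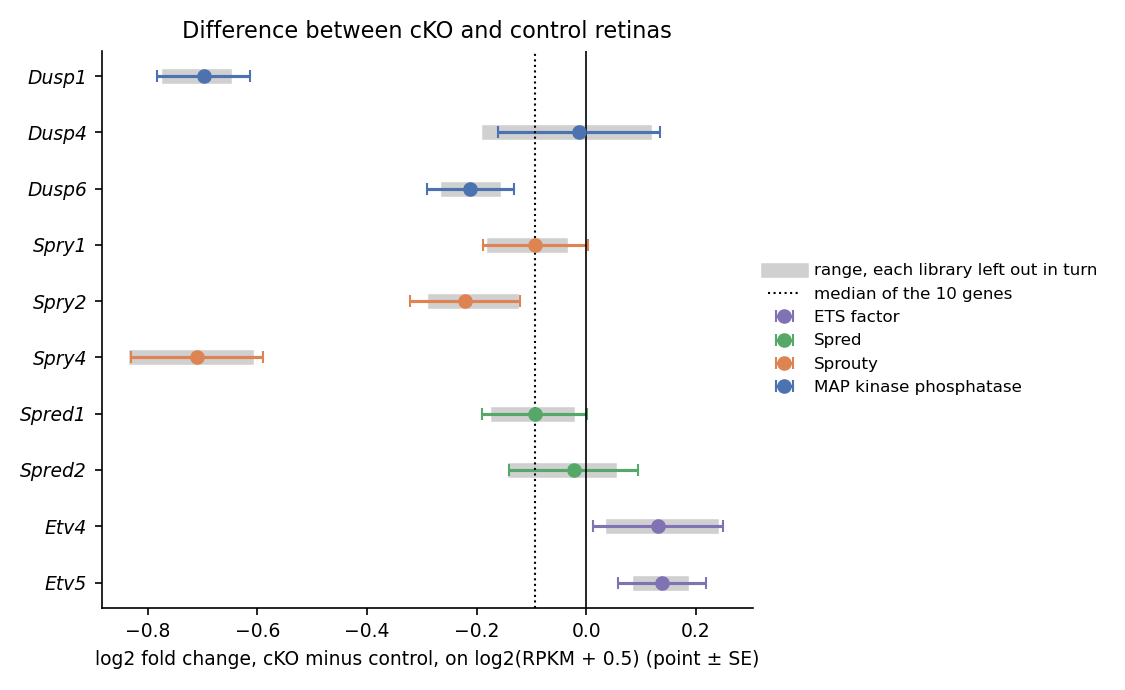
Log2 fold change of each gene, cKO minus control, on the log2(RPKM + 0.5) scale (horizontal axis), as a point with its SE, coloured by role, over a grey bar for the range when each library is left out in turn. Dusp1 (−0.70) and Spry4 (−0.71) lie far to the left of the dotted median of the 10 genes (−0.09), and the grey bars of Dusp4 and Spred2 cross 0.

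Dusp1 and Spry4 were 2 of the 35 tested genes (0.278%) with a log2 fold change below −0.6, and the other 8 lay within 0.25 of 0, as did 94.1% of tested genes. Summed over all 10, the level was 106 ± 3.83 RPKM in controls and 91.1 ± 7.18 RPKM in cKO, or 86.1%.

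Within each group the members did not vary alike. In cKO replicate 2, 7 of the 10 lay above the mean of their own group, against 4 in cKO replicate 3 and 2 in cKO replicate 4. Dusp4 deviated most, by 0.33 in cKO replicate 2 and −0.24 in cKO replicate 4 on the log2 scale. In controls, Spry4 deviated by 0.18 in replicate 1 and −0.22 in replicate 2. Etv4 went the other way from most members, at −0.17 in control replicate 1 and −0.19 in cKO replicate 2. Dusp6 did so too in these libraries, by less, at −0.08 and −0.04.

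**Figure D3:**
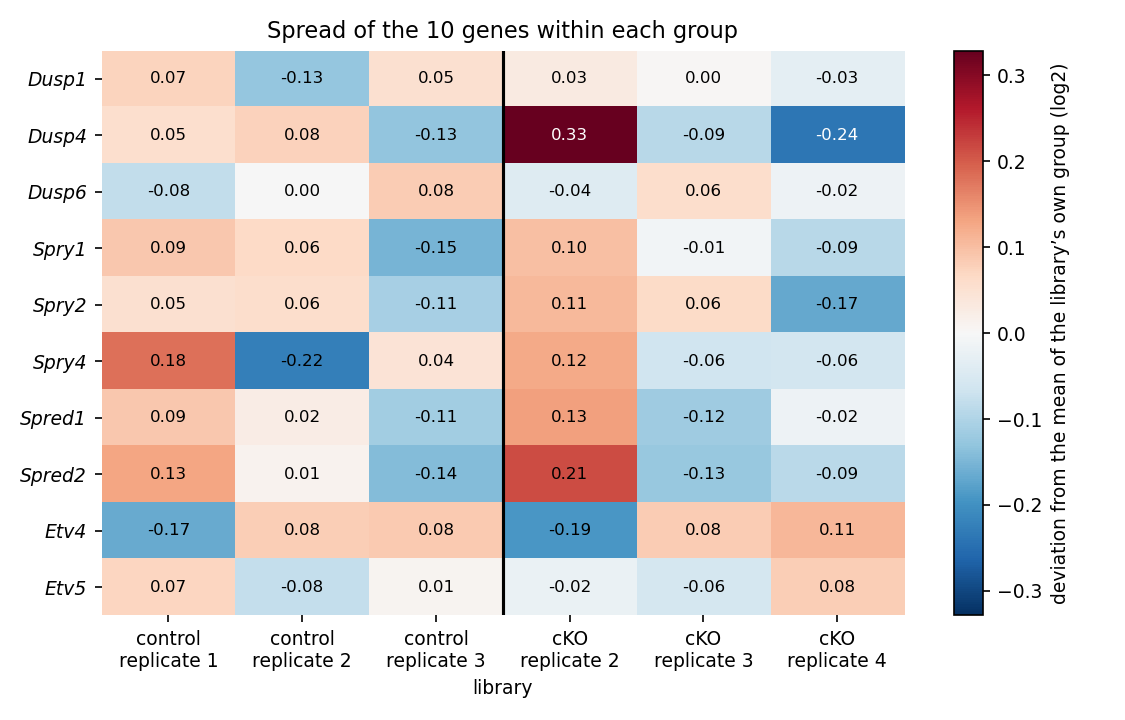
Deviation of each gene (rows) in each library (columns) from the mean of that library's own group on the log2(RPKM + 0.5) scale, with controls left and cKO right of the black line. Red is above and blue below the group mean, and Dusp4 in cKO replicate 2 (0.33) is the largest deviation shown.

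Over the 6 libraries, Pearson's r of the log2 levels was 0.98 between Dusp1 and Spry4 and 0.86 between Dusp1 and Dusp6. It was 0.90 between Spred1 and Spred2, 0.89 between Dusp4 and Spred2 and −0.87 between Spred1 and Etv4. These values share the 6 libraries, their depth and the group difference itself, and are descriptions. Of the genes outside the members, those most like Dusp1 in pattern were Senp8 (r = 0.999), Tcp11 (0.991), Stk17b (0.984), Zfp563 (0.983) and Sh3yl1 (0.978). Those most like Spry4 were Zfp563 (0.984), Stom (0.982), Senp8 (0.978), Lrig2 (0.978) and Scn2a1 (0.978). These are the highest r among all tested genes, and r does not reflect the size of a difference. In this order their log2 fold changes were −0.34, −0.19, −0.43, −0.13 and −0.04, against −0.71 for Spry4. Senp8, a protease of the ubiquitin-like protein NEDD8, averaged 0.922 ± 0.00773 RPKM over the cKO and 1.41 ± 0.0880 RPKM over the control libraries.

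The rest of the pathway was read from 9 lists of 171 genes, of which 135 were tested. Limma's adjusted p of 0.05 was passed by 0 of the 135. At an unadjusted p under 0.05, 12 of them were lower and 2 higher, against 3.06% and 2.65% of all tested genes. Their median log2 fold change was −0.02, with 77 lower and 58 higher in mean. These lists were drawn up with earlier results of these data known.

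The nearest relatives of the phosphatases gave 4 lower and 1 higher mean of 5 tested, with a median log2 fold change of −0.11. Dusp5, a nuclear phosphatase of ERK, was at 16.9, 16.2 and 15.5 RPKM in cKO and at 22.3, 17.6 and 19.8 RPKM in controls. The groups did not overlap, and its log2 fold change was −0.28 ± 0.10 (limma adjusted p = 0.848). Dusp10, a phosphatase of p38 and JNK, was at 7.13 ± 0.210 RPKM in cKO and 8.22 ± 0.817 RPKM in controls (limma adjusted p = 0.897). Dusp8, the most abundant of the list, was at 66.6 ± 8.24 and 60.8 ± 5.21 RPKM, with overlapping groups. Of the other feedback genes, 4 of 8 tested had a lower mean in cKO, and none of the 8 reached an unadjusted p of 0.05. Among them the adaptor Sh2b3 was at 7.12 ± 0.682 RPKM in cKO and 6.13 ± 0.712 in controls, the ubiquitin ligase gene Cbl at 2.73 ± 0.492 and 3.13 ± 0.405, and Lrig1, which restrains receptor kinases, at 9.74 ± 1.20 and 9.22 ± 0.963.

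Upstream, the ligands had 13 lower and 6 higher means of 19 tested, with a median log2 fold change of −0.07. Edn2, the peptide endothelin-2, which signals through G protein-coupled receptors, was at 1.77, 1.19 and 2.60 RPKM in cKO and at 3.29, 3.40 and 4.92 RPKM in controls. The groups did not overlap, and the log2 fold change of −0.92 ± 0.23 did not pass (limma adjusted p = 0.681). Bdnf, the neurotrophin that binds the receptor Ntrk2, was at 1.30 ± 0.196 RPKM in cKO and 1.85 ± 0.281 RPKM in controls (limma adjusted p = 0.848). Vegfa, the most abundant ligand, was at 39.7 ± 4.81 and 35.8 ± 1.43 RPKM, with overlapping groups. The 16 receptors had 9 lower and 7 higher means and a median of −0.03. Egfr was at 0.933 ± 0.106 RPKM in cKO and 1.16 ± 0.0815 in controls, Ntrk2 at 8.85 ± 0.331 and 9.67 ± 0.457, and Kdr, the most abundant, at 21.3 ± 0.876 and 21.01 ± 0.840.

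The core of the cascade showed small differences. The 22 adaptors, RAS genes and RAS regulators split into 11 lower and 11 higher, with a median log2 fold change of 0.00, and the 18 RAF-MEK-ERK kinases and scaffolds into 8 lower and 10 higher, with a median of 0.02. Rps6ka2, a kinase that ERK activates, was at 27.8 ± 3.54 RPKM in cKO and 23.0 ± 1.84 RPKM in controls (limma adjusted p = 0.874), with overlapping groups. Rasgrf2, an exchange factor for RAS, was at 19.0 ± 0.215 and 17.4 ± 0.180 RPKM, and Nras at 4.33 ± 0.108 and 4.76 ± 0.144. In the parallel JNK, p38 and ERK5 cascades, 5 of 14 had a lower and 9 a higher mean. Mapk11, which encodes p38 beta, was at 9.40, 9.97 and 12.7 RPKM in cKO and at 7.96, 7.65 and 9.28 RPKM in controls, without overlap (limma adjusted p = 0.848).

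Downstream, the early genes that ERK induces had the lowest median of the 9 lists, −0.18, with 14 lower and 4 higher means of 18 tested. At an unadjusted p under 0.05, 7 were lower and 0 higher. Fos, a subunit of AP-1, was at 15.4, 13.1 and 16.5 RPKM in cKO and at 25.9, 23.4 and 25.3 RPKM in controls. The groups did not overlap, and the log2 fold change of −0.71 ± 0.10 had the lowest limma adjusted p of the lists, 0.173, which does not pass. Egr1, a zinc finger factor, was at 12.3, 11.4 and 12.03 RPKM in cKO and at 23.6, 26.4 and 17.3 RPKM in controls (log2 fold change −0.87 ± 0.15, limma adjusted p = 0.282). Ier3, the most abundant of the list, was at 29.2 ± 2.07 and 32.6 ± 3.70 RPKM, with overlapping groups.

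Fos and Egr1 stood at a percent of control near that of Dusp1 and Spry4. Both pairs were picked for their low cKO values, Fos and Egr1 by the smallest p of their list. Nothing is therefore read from this likeness. The control libraries of Fos were in the same order as those of Dusp1 and Spry4, and those of Egr1 in another. Control replicate 2 was the lowest control for Dusp1, Spry4 and Fos and the highest for Egr1. The remaining ETS and SRF factors, 9 lower and 6 higher of 15 tested, had a median of −0.07. Elk3 was at 1.91 ± 0.0537 RPKM in cKO and 1.66 ± 0.109 in controls, without overlap, and Elk1 at 11.9 ± 0.922 and 10.3 ± 1.28, with overlap.

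**Figure D4:**
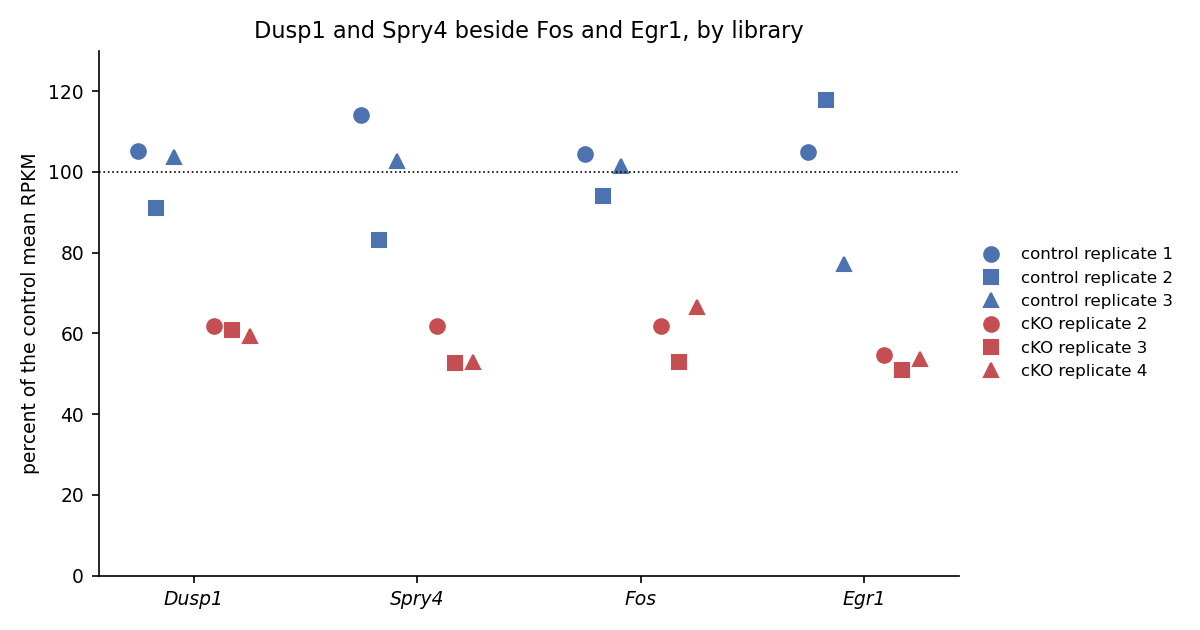
Level of Dusp1, Spry4, Fos and Egr1 in each library as percent of that gene's control mean RPKM (vertical axis, from 0), with controls in blue and cKO in red. For all 4 genes, which were picked after this difference was seen, the 3 cKO libraries lie below the 3 control libraries. The controls of Egr1 are the most spread.

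**Figure D5:**
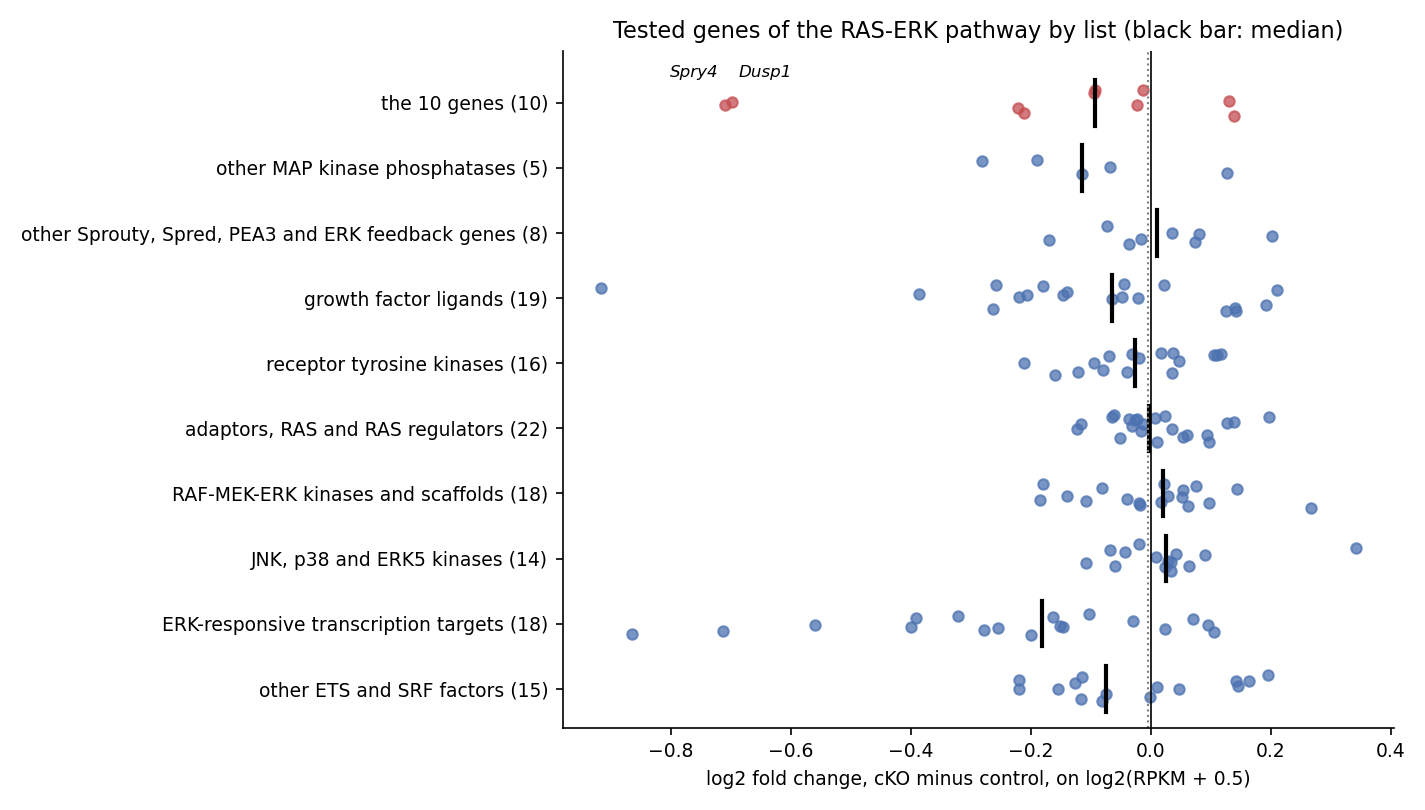
Log2 fold change, cKO minus control, of every tested gene (points, spread vertically for visibility) in the 10 genes (red) and in each of 9 pathway lists (blue, with the number tested), with a black bar at the median and a dotted line at the median of all tested genes. The early target list has the lowest median (−0.18), and no point passed limma's adjusted p of 0.05.

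Summed markers of other retinal cells are given beside these values. Müller glia markers, 4 of 10 with a lower mean, summed to between 1461 and 1561 RPKM in cKO and between 1417 and 1562 RPKM in controls, or 99.5% of control. Endothelial and pericyte markers, 5 of 7 lower, summed to 55.6 to 58.8 and 56.2 to 58.4 RPKM, and microglial markers, 5 of 7 lower, to 23.8 to 30.3 and 28.1 to 29.8 RPKM. Bipolar cell markers, 1 of 6 lower, summed to 275 to 283 RPKM in cKO and 231 to 258 RPKM in controls, without overlap. Lens markers, 7 of 7 lower in mean, ranged from 201 to 2421 RPKM in cKO and from 345 to 3265 RPKM in controls, and 3 of the 4 red blood cell markers were at 0 in all libraries. The part of any of these markers in the members' values was not tested.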

How the data were processed

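Poly(A) RNA of 6 pooled retinal samples was sequenced, and the authors deposited 1 table of RPKM values per gene and library. Per the submitters' processing notes, the tools were GSNAP and HTSeq on the mm9 build, with no versions. For the annotation and the gene lengths behind the RPKM, nothing is given in the sources used here. Per the labels' protocols the cDNA synthesis marks no strand. RPKM divides by depth and length, so a change in abundant genes shifts all others.

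Groups follow the labels, which call the libraries biological replicates but give no litter, so p-values measure the spread between pools. Genes averaging 1 RPKM or more (12599 of 22731) were fitted with limma 3.58.1 (R 4.3.3) on log2(RPKM + 0.5) with a variance trend, two-sided, with Benjamini-Hochberg adjustment over all tested genes and a threshold of 0.05. Fold changes and SE are from this fit, which understates the change of low genes. Whole reads were recovered from the RPKM steps for 19138 of 19140 genes above 0 (99.99%), returning the deposited values within 5.09e-06. The lengths of 4293 genes with a single transcript in GENCODE M21 set the scale, with the smallest denominator that gives whole reads. Limma voom on these reads was an alternative. Read numbers cover counting error only.

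The members and the gene lists were chosen with earlier results of these data known. In each list the text names each gene called, otherwise the 2 with the smallest p, and the most abundant, and some relatives chosen after their values were seen. For Dusp1 and Spry4 it names the 5 tested genes with the highest Pearson r. Coordinates are GRCm38, not the authors' build, and only place genes. A comparison of phosphatase protein sequences and a search for sites of miR-124 were planned and were not run.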

Additional observations from a re-analysis of the deposited data

How the results depend on the processing

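Of 147 alternative values of the members' log2 fold changes, 13 changed sign (6 for Dusp4, 5 for Spred2, 2 for Etv4), and none moved by more than the spread between libraries. The members' median was −0.09 and ranged from −0.17 (without cKO replicate 2) to −0.05 (without control replicate 1) with a library left out, and was −0.02 with replicates 2 and 3 alone. A minimum of 5 RPKM leaves out Spry4, Spred2 and Etv4.

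Over the whole table, 0 genes were called lower and 1 higher. Called lower were 2 genes with no filter (Mir3062 and Mir466i), and 1 by voom on recovered reads (Dusp1, a member chosen on this contrast, so that the call supports nothing). Called higher were 2 genes with a minimum of 5 RPKM, 3 with median-of-ratios scaling, 2 without a variance trend and 2 by voom. Leaving out each library gave 0 lower and 1 higher. The cause of these differences was not tested.

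Replicate numbers 2 and 3 occur in both groups. No label ties a number to a litter, batch or day, and with 2 pairs the numbers cannot be taken to pair the samples. Deviations from the group means correlated at 0.47 for the libraries numbered 2 and at −0.05 for those numbered 3. Of the pairs with unlike numbers, cKO replicate 4 and control replicate 3 reached 0.48, and the others lay between −0.55 and 0.20. The difference of replicate 2 minus replicate 3 correlated at 0.47 between the groups over genes. A replicate block on these 4 libraries, with 1 residual degree of freedom, called 116 genes lower, and 93 higher. Of the pathway genes outside the members it called 5 lower (Edn2, Egr1, Fos, Ier2, Klf2). The block also called the members Dusp1 and Spry4 lower. Both were chosen on this contrast, so that these calls support nothing. Fitted without the block, these 4 libraries gave 0 lower and 1 higher, and 0 pathway genes.

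With 3 libraries a group, depth and number limit the precision, and Etv4 rested on the fewest reads, from 93.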

Other observations

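Of the 7 early genes lower at an unadjusted p under 0.05, the 5 besides Fos and Egr1 (Ier2, Junb, Klf2, Fosl2 and Klf6) are outside the naming rule and were chosen after their values were seen. Ier2 was at 16.9, 17.2 and 18.2 RPKM in cKO and at 24.6, 21.6 and 23.2 RPKM in controls, without overlap (log2 fold change −0.40 ± 0.08, limma adjusted p = 0.502). Junb, an AP-1 subunit, was at 11.9, 9.75 and 9.41 RPKM in cKO and at 15.3, 14.3 and 11.8 RPKM in controls, where cKO replicate 2 overlapped the lowest control (log2 fold change −0.39 ± 0.13, limma adjusted p = 0.848). Klf2, a zinc finger factor, was at 2.67 ± 0.489 RPKM in cKO and 4.16 ± 0.551 RPKM in controls (log2 fold change −0.56 ± 0.14, limma adjusted p = 0.666). Fosl2 had a log2 fold change of −0.32 ± 0.12 and Klf6 of −0.20 ± 0.08 (limma adjusted p = 0.864 and 0.848). All 5 had smaller log2 fold changes than Fos (−0.71) and Egr1 (−0.87), and these differences between genes were not tested. The ligand genes Hbegf and Btc, both of the EGF family, were at 4.31 ± 0.171 and 1.49 ± 0.149 RPKM in cKO and at 5.28 ± 0.740 and 1.88 ± 0.156 RPKM in controls (limma adjusted p = 0.871 and 0.848).

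Some relatives of the members were barely expressed in these retinas. Dusp2 was at 0.175 RPKM in cKO and 0.201 RPKM in controls, and Dusp9 had between 0 and 2 reads in every library. Il17rd, which encodes the feedback inhibitor Sef, was at 0.337 and 0.377 RPKM. Spred3, which was tested, was at 7.29 ± 0.507 RPKM in cKO and 6.86 ± 0.301 RPKM in controls, with overlapping groups.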
